A study of Arabidopsis thaliana with 30 samples.

Results

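Transcripts of 9 genes of carotenoid synthesis, the xanthophyll cycle and thermal energy dissipation were followed in whole rosettes of Arabidopsis thaliana kept outdoors under filtered sunlight. The genes were chosen by locus for their place in the pathway, with earlier results of these data known. They are PSY (AT5G17230), PDS (AT4G14210), ZDS (AT3G04870), LYCB (AT3G10230), BCH1 (AT4G25700), BCH2 (AT5G52570), ZEP (AT5G67030), VDE (AT1G08550) and PSBS (AT1G44575). All 9 were among the 34212 loci of the deposited table and among the 19980 that passed the filter on low counts. The 3 genotypes were uvr8-2, a mutant of UVR8 (the receptor for UV-B), cry1cry2, a double mutant of the cryptochromes CRY1 and CRY2 (receptors for blue light), and the wild type Ler. Plants were 3 weeks old, had been raised indoors under white fluorescent lamps behind a film that removed the lamps' UV-A, and were harvested after 6 h outdoors from sunrise. The long-pass filters, named blue0, UV0, UVA350, UVA and UVA+B, let through successively more of the short-wave end of sunlight. The labels give no cut-off wavelengths. The study was designed to find the part that each class of receptor plays in sunlight responses. Each of the 15 genotype-by-filter groups held 2 libraries, and each library pooled RNA from 2 field blocks with 5 rosettes per block sample.

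Carotenoids are made in plastids from the precursor geranylgeranyl diphosphate. Phytoene synthase (PSY) makes the first dedicated product, phytoene and zeta-carotene desaturases (PDS and ZDS) turn it, with isomerases, into lycopene, and lycopene beta-cyclase (LYCB) leads to beta-carotene. The beta-carotene hydroxylases (BCH1 and BCH2) make zeaxanthin, which zeaxanthin epoxidase (ZEP) converts to violaxanthin, and violaxanthin de-epoxidase (VDE) reverses that step in strong light. PSBS is a thylakoid protein that senses low lumen pH and is needed for the rapid thermal dissipation of excess light energy, to which zeaxanthin also contributes.

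Library totals ran from 12109222 to 22865826 estimated counts, and in each group the 2 libraries differed by more than sampling noise. The chloroplast genome supplied 0.123% to 1.585% of all counts, and more than 1% in 3 libraries (uvr8-2 blue0 replicate 2, cry1cry2 UVA replicate 2 and cry1cry2 UVA+B replicate 2). Summed over the list, the 4 leaf markers reached 17520 to 35500 CPM (counts scaled to a common library size), the 4 root markers 0 to 0.896 CPM and the 4 flower markers 1.22 to 6.84 CPM, so that leaf markers were abundant in every library, though not at a constant level, and root and flower markers near 0. Both CRY1 and CRY2 had lower CPM in both cry1cry2 libraries than in both Ler libraries under each of the 5 filters. By the edgeR test the difference passed an adjusted p of 0.05 for CRY1 under 4 filters (all but UV0, adjusted p = 0.0702) and for CRY2 under UVA+B and blue0. UVR8 was not lower in uvr8-2 under any filter, so its transcript does not check that label. In whole rosettes, fewer cells of a type and less RNA per cell cannot be told apart.

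PSBS had by far the highest transcript level of the 9 genes. Per kilobase of the longest RefSeq transcript, its mean over the 30 libraries was 2369 CPM. ZEP averaged 202.5 CPM per kilobase, PSY 168, ZDS 89.7, PDS 71.3, VDE 70.4, BCH1 68.0 and LYCB 37.5, and BCH2 was lowest at 10.7. The spread across the 15 groups had another order. The mean level in the highest group exceeded that in the lowest by 11.1-fold for BCH1, 4.01-fold for PSBS, 3.07-fold for ZDS, 2.67-fold each for PDS and ZEP, 2.11-fold for BCH2, 1.78-fold for PSY, 1.76-fold for VDE and 1.61-fold for LYCB. The lowest group was a blue0 group for 7 of the genes, and cry1cry2 under UVA350 for PSY and BCH2.

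**Figure D1:**
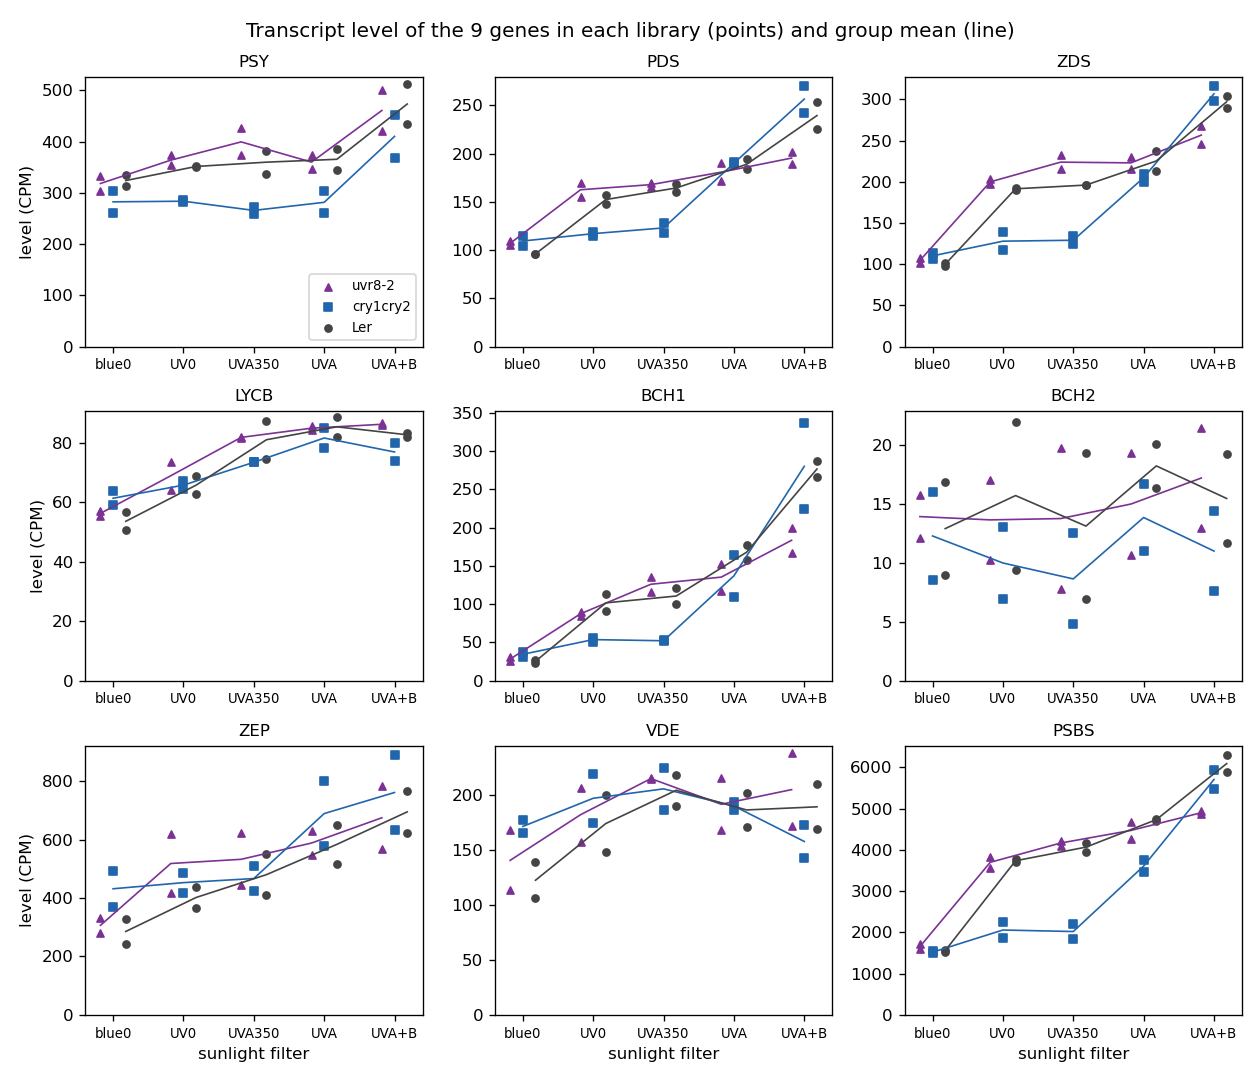
Level of each gene in CPM, counts scaled to library size (vertical axis, from 0) under the 5 sunlight filters, from the filter that blocks most to the one that blocks least. Points are the 30 single libraries and lines join the means of 2 libraries. In PDS, ZDS, BCH1 and PSBS the cry1cry2 points stay low under UV0 and UVA350 and reach those of Ler under UVA+B.

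For a view of the sequence in front of the genes, the 200 bases upstream of the annotated start were read from the RefSeq genome TAIR10.1, which is of the Columbia accession and not of Ler. Shown are the genes whose transcripts varied together most (PDS, ZDS, BCH1 and PSBS), and BCH2, the paralog of BCH1. The windows lie at chr4:8195321-8195520 on the minus strand for PDS, chr3:1342255-1342454 on the plus strand for ZDS, chr4:13096050-13096249 on the minus strand for BCH1, chr5:21337127-21337326 on the minus strand for BCH2 and chr1:16870021-16870220 on the plus strand for PSBS. Each is written 5′ to 3′ along its gene, and capitals mark CACGTG (the G-box core), ACGT (which CACGTG contains) or GATAA on either strand.
PDS: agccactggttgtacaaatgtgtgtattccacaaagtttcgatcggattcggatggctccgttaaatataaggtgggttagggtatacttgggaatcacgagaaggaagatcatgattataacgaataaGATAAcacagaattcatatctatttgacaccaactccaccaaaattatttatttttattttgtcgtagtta
ZDS: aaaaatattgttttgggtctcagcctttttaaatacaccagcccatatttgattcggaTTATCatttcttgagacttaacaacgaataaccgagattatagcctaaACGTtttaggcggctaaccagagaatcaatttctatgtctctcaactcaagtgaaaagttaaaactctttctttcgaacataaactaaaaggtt
BCH1: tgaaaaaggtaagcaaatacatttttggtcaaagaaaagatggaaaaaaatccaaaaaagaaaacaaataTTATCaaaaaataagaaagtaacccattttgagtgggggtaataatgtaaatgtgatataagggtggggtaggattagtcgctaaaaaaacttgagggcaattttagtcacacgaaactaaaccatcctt
BCH2: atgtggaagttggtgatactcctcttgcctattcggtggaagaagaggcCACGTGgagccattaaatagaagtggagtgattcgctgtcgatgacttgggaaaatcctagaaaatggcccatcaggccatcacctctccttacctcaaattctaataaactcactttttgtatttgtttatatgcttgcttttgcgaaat
PSBS: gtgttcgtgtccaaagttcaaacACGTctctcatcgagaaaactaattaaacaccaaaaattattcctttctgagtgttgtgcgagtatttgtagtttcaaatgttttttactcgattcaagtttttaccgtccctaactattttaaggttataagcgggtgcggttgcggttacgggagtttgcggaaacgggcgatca
CACGTG was in 1 of the 9 windows, that of BCH2, and in 5.64% of the 27443 windows of the same length in front of annotated genes. ACGT was in 4 of the 9 (ZDS, BCH2, ZEP and PSBS), against 38.4% of all windows, and GATAA in 5 of the 9 (PDS, ZDS, LYCB, BCH1 and ZEP), against 46.9%. These matches describe letters in a short window and say nothing of what binds there.

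Among the early enzymes, PSY was not called at the blue step or either UV-A step in any genotype. Phytoene synthase transcripts (PSY) stood in uvr8-2 at 304 and 332 CPM under blue0, 374 and 353 under UV0, 425 and 373 under UVA350, 374 and 346 under UVA and 501 and 420.3 under UVA+B. In cry1cry2 PSY had 303 and 261 CPM under blue0, 282 and 285 under UV0, 272 and 259 under UVA350, 303 and 260.0 under UVA and 452 and 368 under UVA+B. In Ler PSY had 314 and 334 CPM under blue0, 352 and 350.4 under UV0, 382 and 337 under UVA350, 386 and 345 under UVA and 513 and 433 under UVA+B. Both UVA+B libraries lay above all others in cry1cry2 and in Ler, while in uvr8-2 they overlapped those under UVA350. That overlap is between different replicate numbers. Within each number the uvr8-2 UVA+B library lay above all others. For PSY replicate 1 lay above replicate 2 in 12 of 15 groups, with a log2 difference, replicate 2 minus replicate 1, of -0.12 ± 0.04. The UV-B step (UVA+B minus UVA) raised PSY in cry1cry2 by a log2 change of 0.54 ± 0.13 (adjusted p = 0.00621) by the quasi-likelihood test of edgeR, with p-values adjusted over all genes by the method of Benjamini and Hochberg. The values in uvr8-2, 0.36 ± 0.13 (adjusted p = 0.637), and in Ler, 0.37 ± 0.13 (adjusted p = 0.125), did not pass the threshold of 0.05. Here and below a log2 change is given with its standard error from the fit over all 30 libraries, and all adjusted p-values are from this test.

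The desaturase genes PDS and ZDS were higher with blue light in uvr8-2 and Ler. PDS in uvr8-2 stood at 109 and 105 CPM under blue0, 169.5 and 156 under UV0, 166 and 170.0 under UVA350, 189.9 and 172 under UVA and 201 and 189.5 under UVA+B. In cry1cry2 it had 115 and 104 CPM under blue0, 119 and 115 under UV0, 117 and 129 under UVA350, 189 and 191 under UVA and 270.5 and 243 under UVA+B. In Ler it had 95.8 and 96.2 CPM under blue0, 157 and 147 under UV0, 159.9 and 169 under UVA350, 194 and 184 under UVA and 226 and 253 under UVA+B. In uvr8-2 and Ler the UV0 libraries lay above the blue0 libraries, whereas in cry1cry2 all 6 libraries under blue0, UV0 and UVA350 lay between 104 and 129 CPM. ZDS, the next desaturase, had in uvr8-2 102 and 107 CPM under blue0, 203 and 197 under UV0, 233 and 215 under UVA350, 231 and 215 under UVA and 268 and 246 under UVA+B. In cry1cry2 ZDS had 114 and 107 CPM under blue0, 117 and 139 under UV0, 124 and 134 under UVA350, 210.0 and 200.01 under UVA and 316 and 298 under UVA+B. In Ler ZDS had 97.8 and 102 CPM under blue0, 190.3 and 193 under UV0, 196 and 196 under UVA350, 237 and 214 under UVA and 289.7 and 305 under UVA+B. Under blue0 the ZDS levels of the 3 genotypes lay within 97.8 to 114 CPM, and under UV0 the cry1cry2 libraries lay below all 4 others.

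Lycopene beta-cyclase transcripts moved within a narrow range. LYCB in uvr8-2 had 55.3 and 57.2 CPM under blue0, 73.6 and 64.3 under UV0, 81.6 and 82.0 under UVA350, 85.5 and 84.3 under UVA and 85.9 and 86.6 under UVA+B. In cry1cry2 it had 63.8 and 58.9 CPM under blue0, 67.2 and 64.4 under UV0, 73.5 and 73.5 under UVA350, 78.1 and 85.1 under UVA and 80.0 and 73.9 under UVA+B. In Ler it had 50.6 and 56.6 CPM under blue0, 68.8 and 62.7 under UV0, 87.5 and 74.6 under UVA350, 82.1 and 88.7 under UVA and 82.0 and 83.4 under UVA+B. The blue0 libraries were the lowest in each genotype, and the levels under UVA and UVA+B lay close together. LYCB was the only gene of the 9 called for the long UV-A step, which is UVA350 minus UV0, averaged over the 3 genotypes, at 0.24 ± 0.06 (adjusted p = 0.0349), against 1.24% of all genes called there (0.871% higher). That call was lost in 10 of 12 fits that each left out 1 of its libraries, with values of 0.20 to 0.28 over the 12 fits. The 2 libraries whose absence did not end it were uvr8-2 UV0 replicate 1 and Ler UVA350 replicate 2.

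BCH1 had the widest range of the 9 genes. This beta-carotene hydroxylase transcript stood in uvr8-2 at 25.8 and 30.7 CPM under blue0, 89.7 and 85.0 under UV0, 136 and 116 under UVA350, 153 and 118 under UVA and 199.9 and 167 under UVA+B. In cry1cry2 BCH1 had 31.0 and 37.9 CPM under blue0, 51.1 and 56.2 under UV0, 51.6 and 52.6 under UVA350, 165 and 109 under UVA and 336 and 224 under UVA+B. In Ler BCH1 had 22.9 and 27.6 CPM under blue0, 113 and 90.7 under UV0, 121 and 99.9 under UVA350, 178 and 158 under UVA and 266 and 286 under UVA+B. Ordered by mean, the 3 blue0 groups were lowest, cry1cry2 under UVA350 and UV0 came next, and Ler and cry1cry2 under UVA+B were highest. Of the 14 pairs of neighbouring groups in that order, 5 did not overlap. Such counts, here and below, describe groups sorted by these same means and were not set against those of other genes.

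BCH2, the second hydroxylase gene, was not called by edgeR in any of the 46 comparisons. That fit had no term for the replicate number, and its intervals for BCH2 were wide. Under UVA350 the log2 difference cry1cry2 minus Ler was -0.63, with a 95% interval of -2.03 to 0.78. The missing calls therefore do not show an unchanged level. Within each replicate number cry1cry2 lay below Ler under each of the 5 filters. BCH2 in uvr8-2 had 15.7 and 12.1 CPM under blue0, 17.0 and 10.2 under UV0, 19.8 and 7.74 under UVA350, 19.3 and 10.7 under UVA and 21.5 and 12.9 under UVA+B. In cry1cry2 it had 16.0 and 8.52 CPM under blue0, 13.0 and 6.95 under UV0, 12.5 and 4.77 under UVA350, 16.7 and 11.0 under UVA and 14.4 and 7.57 under UVA+B. In Ler it had 16.8 and 8.95 CPM under blue0, 22.0 and 9.42 under UV0, 19.3 and 6.94 under UVA350, 20.1 and 16.3 under UVA and 19.2 and 11.7 under UVA+B. All 14 pairs of neighbouring groups in the order of means overlapped, and replicate 1 lay above replicate 2 in 15 of 15 groups. The overlap therefore includes this replicate difference. Of all genes tested, 3.43% kept the same order of the replicates in all 15 groups. Per kilobase, BCH1 was 0.98 times BCH2 in Ler blue0 replicate 1, the lowest ratio of the 30 libraries, and 21.3 times BCH2 in cry1cry2 UVA+B replicate 2, the highest. The ratio was 2.22 in Ler blue0 replicate 2 and 16.8 in cry1cry2 UVA+B replicate 1. The lowest and highest ratio came from different replicate numbers, so their range includes the replicate difference of BCH2.

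The xanthophyll cycle genes differed from each other. ZEP in uvr8-2 had 333 and 281 CPM under blue0, 619 and 418 under UV0, 622 and 444 under UVA350, 630.4 and 547 under UVA and 782 and 568 under UVA+B. In cry1cry2 it had 493 and 370.5 CPM under blue0, 487 and 419 under UV0, 509 and 425 under UVA350, 802 and 577 under UVA and 890.1 and 633 under UVA+B. In Ler it had 329 and 242 CPM under blue0, 439 and 365 under UV0, 549.7 and 411 under UVA350, 652 and 516 under UVA and 767 and 624 under UVA+B. Group means of ZEP were highest under UVA+B in every genotype. Here too replicate 1 lay above replicate 2 in 15 of 15 groups. VDE, which runs the opposite reaction, had in uvr8-2 113 and 168 CPM under blue0, 157 and 206 under UV0, 214 and 215 under UVA350, 168 and 215 under UVA and 171 and 238 under UVA+B. In cry1cry2 VDE had 165 and 177 CPM under blue0, 175 and 219 under UV0, 186 and 224 under UVA350, 186 and 193 under UVA and 142 and 173 under UVA+B. In Ler VDE had 106 and 138 CPM under blue0, 148 and 199.99 under UV0, 189.7 and 218 under UVA350, 171 and 201 under UVA and 168 and 209 under UVA+B. Replicate 2 lay above replicate 1 in 15 of 15 groups for VDE, and all 14 neighbouring pairs of groups overlapped, a spread that includes this replicate difference. In the main fit, which had no term for the replicate number, edgeR called no single filter step for VDE in any genotype. With such a term it called VDE at the blue step in Ler.

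PSBS took the largest share of counts of the 9 genes in every library. PSBS in uvr8-2 stood at 1601 and 1709.5 CPM under blue0, 3559.6 and 3839 under UV0, 4107 and 4227 under UVA350, 4677 and 4268 under UVA and 4947 and 4859 under UVA+B. In cry1cry2 PSBS had 1494 and 1545 CPM under blue0, 1867 and 2248 under UV0, 1849 and 2192 under UVA350, 3756 and 3460.3 under UVA and 5939.6 and 5477 under UVA+B. In Ler PSBS had 1537 and 1580.2 CPM under blue0, 3701 and 3772 under UV0, 4174 and 3961 under UVA350, 4755 and 4713 under UVA and 5896 and 6291 under UVA+B. The blue0 libraries of the 3 genotypes lay within 1494 to 1710 CPM, and under UV0 and UVA350 the cry1cry2 libraries reached 1849 to 2248 CPM. Of the 14 pairs of neighbouring groups in the order of means, 8 did not overlap.

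The blue step (UV0 minus blue0) raised the desaturases, BCH1 and PSBS in uvr8-2 and Ler, and was not called for any of the 9 genes in cry1cry2. In uvr8-2 it passed the test for 6 of the 9 genes, all higher, against 15.2% of all genes called in either direction and 8.38% called higher. PSBS rose by 1.16 ± 0.11 (adjusted p = 5.63e-07), BCH1 by 1.63 ± 0.20 (adjusted p = 1.61e-05), ZDS by 0.94 ± 0.10 (adjusted p = 1.37e-06) and PDS by 0.60 ± 0.09 (adjusted p = 0.000133). The uvr8-2 calls of LYCB, 0.29 ± 0.10 (adjusted p = 0.04), and ZEP, 0.76 ± 0.25 (adjusted p = 0.0472), were each lost in 3 of 4 fits without 1 library. In cry1cry2 edgeR called 0 of the 9, against 0.175% of all genes. There 3 of the 9 (ZDS, BCH1 and PSBS) had an unadjusted p under 0.05, and DESeq2 called 1, PSBS. PSBS in cry1cry2 differed by 0.44 ± 0.11 (adjusted p = 0.142) and BCH1 by 0.64 ± 0.20 (adjusted p = 0.373). In Ler 5 of the 9 were called, all higher, against 18.1% of all genes in either direction and 9.7% higher. PSBS rose in Ler by 1.26 ± 0.11 (adjusted p = 1.28e-07), BCH1 by 2.01 ± 0.21 (adjusted p = 1.68e-06), ZDS by 0.94 ± 0.10 (adjusted p = 1.1e-06) and PDS by 0.67 ± 0.09 (adjusted p = 4.6e-05). The Ler call of LYCB, 0.29 ± 0.10 (adjusted p = 0.037), was lost in 3 of 4 fits without 1 library. The libraries that ended these LYCB and ZEP calls were, in uvr8-2, UV0 replicate 1 and both blue0 replicates, and in Ler both UV0 replicates and blue0 replicate 1. The values without them ran from 0.21 to 0.40 for LYCB in uvr8-2, from 0.46 to 1.02 for ZEP in uvr8-2 and from 0.22 to 0.39 for LYCB in Ler, over all 4 fits each. The median change of the 9 genes at the blue step was 0.60 in uvr8-2, 0.10 in cry1cry2 and 0.51 in Ler, while that of all genes lay between -0.01 and 0.00 in each.

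Leaf markers moved at the blue step as well. Of the 4 (RBCS1A, RCA, CA1 and LHCB3), 3 rose and LHCB3 fell in uvr8-2 and in Ler, and 0 were called in cry1cry2. The shares of all genes called at this step, in either direction, were 15.2% in uvr8-2, 0.175% in cry1cry2 and 18.1% in Ler. CA1, a carbonic anhydrase, rose by 1.15 ± 0.22 in uvr8-2 and 1.61 ± 0.23 in Ler, and its value in cry1cry2 was 0.26 ± 0.22. LHCB3, a light-harvesting protein, fell by 0.67 ± 0.19 in uvr8-2 and by 0.57 ± 0.19 in Ler. The 4 summed to 25379 and 28108 CPM under UV0 in uvr8-2, against 22016 and 22365 CPM under blue0. In cry1cry2 they summed to 23419 and 24240 CPM under UV0, against 20796 and 22371 CPM under blue0, and in Ler to 25665 and 25745 CPM under UV0, against 17522 and 19526 CPM under blue0. The UV0 sums lay above the blue0 sums in each genotype. Of 3 guard cell markers 1, KAT1, rose in uvr8-2 and in Ler, and of 2 phloem markers 0 were called in any genotype. The part of leaf or guard cell markers in the blue step of the 9 genes was not tested.

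The difference of the blue step between a mutant and Ler was tested as an interaction. The difference cry1cry2 minus Ler was -0.82 ± 0.15 (adjusted p = 0.0145) for PSBS, -1.37 ± 0.29 (adjusted p = 0.029) for BCH1 and -0.72 ± 0.14 (adjusted p = 0.015) for ZDS, so 3 of the 9 genes were called, against 0.546% of all genes in either direction and 0.44% lower. PDS, at -0.57 ± 0.13 (adjusted p = 0.0528), just missed the threshold, and DESeq2 called it along with the other 3. These calls depended on single libraries. All 3 were lost without any one of Ler UV0 replicate 1, Ler UV0 replicate 2, Ler blue0 replicate 1, cry1cry2 UV0 replicate 1 or cry1cry2 blue0 replicate 2. BCH1 was also lost without Ler blue0 replicate 2 or cry1cry2 UV0 replicate 2, and ZDS without cry1cry2 blue0 replicate 1. Over the 8 fits without 1 library the difference stayed between -0.97 and -0.69 for PSBS, between -1.52 and -1.21 for BCH1 and between -0.86 and -0.59 for ZDS, with a highest adjusted p from edgeR of 0.209. The difference uvr8-2 minus Ler was called by edgeR for 0 of the 9 genes (0% of all genes), with 0 of the 9 at an unadjusted p under 0.05 and 0 by DESeq2. Its 95% interval ran from -0.42 to 0.22 for PSBS, from -0.97 to 0.22 for BCH1 and from -0.28 to 0.28 for ZDS.

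**Figure D2:**
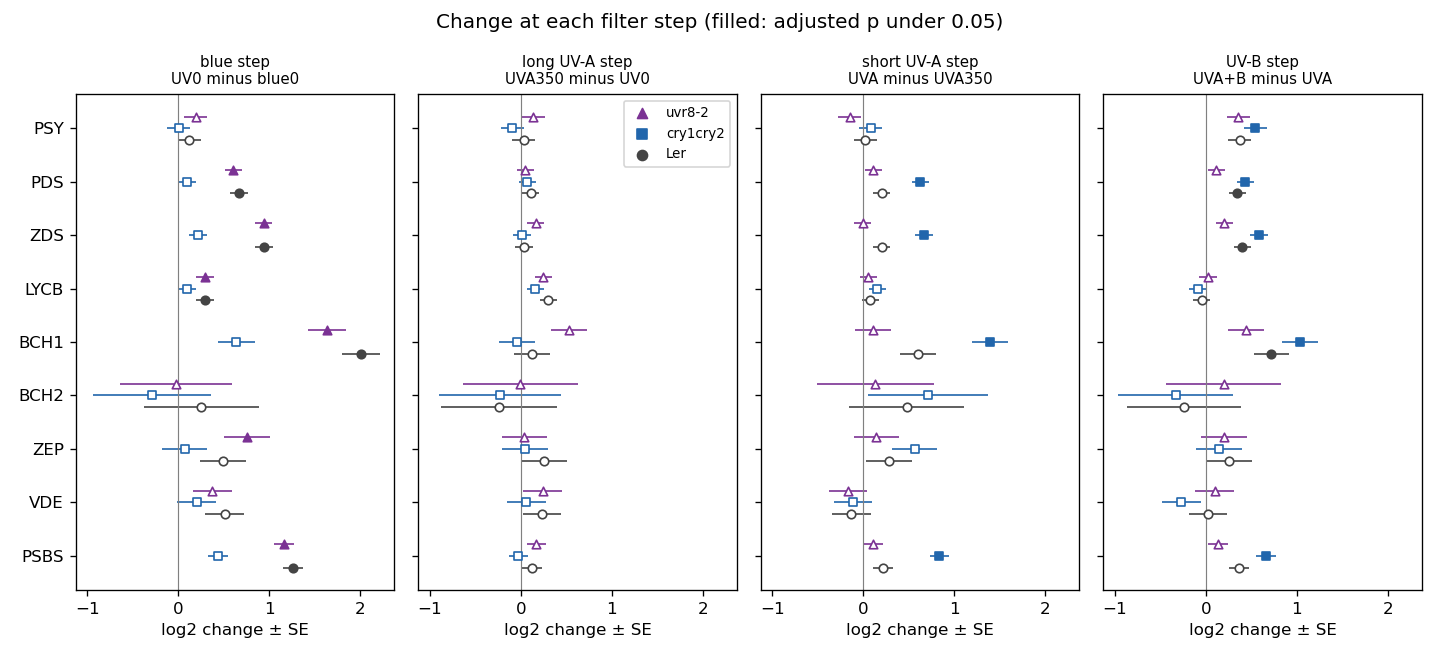
Log2 change (horizontal axis) of each gene at the 4 filter steps in uvr8-2, cry1cry2 and Ler, with bars of 1 standard error from the fit; filled symbols passed an adjusted p of 0.05. At the blue step filled symbols belong to uvr8-2 and Ler, and at the short UV-A step to cry1cry2.

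The short UV-A step, which is UVA minus UVA350, raised the same 4 genes in cry1cry2. There 4 of the 9 were called, all higher, against 3.54% of all genes in either direction and 2.19% higher. PSBS rose by 0.84 ± 0.11 (adjusted p = 8.4e-05), BCH1 by 1.39 ± 0.20 (adjusted p = 0.000262), ZDS by 0.67 ± 0.10 (adjusted p = 0.000199) and PDS by 0.63 ± 0.09 (adjusted p = 0.000296). Each of these 4 calls held in all 4 fits without 1 library, and also without the 3 libraries with over 1% chloroplast counts, where BCH1 stood at 1.66 and PSBS at 0.89. edgeR called 0 of the 9 in uvr8-2 (0% of all genes), with 0 at an unadjusted p under 0.05 and 0 by DESeq2, and the value for PSBS was 0.10 ± 0.11 (adjusted p = 1.000). It called 0 of the 9 in Ler (0.2% of all genes), with 3 (PDS, ZDS and BCH1) at an unadjusted p under 0.05 and 0 by DESeq2, and PSBS in Ler had 0.22 ± 0.11 (adjusted p = 0.621). The difference cry1cry2 minus Ler was not called by edgeR for any of the 9 (0.015% of all genes), although 4 had an unadjusted p under 0.05 and DESeq2 called 1, PSBS. For PSBS it was 0.62 ± 0.15 (adjusted p = 0.585), with a 95% interval of 0.30 to 0.94, and for BCH1 0.79 ± 0.28 (adjusted p = 1.000), with an interval of 0.21 to 1.37. A step called in cry1cry2 and not in Ler is therefore not shown to differ between them by the main test.

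For the long UV-A step, calls were made for 0 of the 9 genes in uvr8-2 (0.0501% of all genes), in cry1cry2 (0%) and in Ler (0%). By unadjusted p under 0.05 the counts were 2 in uvr8-2 (LYCB and BCH1), 0 in cry1cry2 and 1 in Ler (LYCB), and DESeq2 called 0 in each. For PSBS the change was 0.17 ± 0.11 (adjusted p = 0.456) in uvr8-2, -0.03 ± 0.11 (adjusted p = 1.000) in cry1cry2 and 0.12 ± 0.11 (adjusted p = 0.988) in Ler.

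The UV-B step raised PSY, PDS, ZDS, BCH1 and PSBS in cry1cry2. These were the 5 of 9 called there, all higher, against 14% of all genes in either direction and 6.72% higher. BCH1 rose by 1.03 ± 0.20 (adjusted p = 0.00136), PSBS by 0.66 ± 0.11 (adjusted p = 0.000303), ZDS by 0.58 ± 0.10 (adjusted p = 0.00028) and PDS by 0.43 ± 0.09 (adjusted p = 0.00339). Without cry1cry2 UVA+B replicate 1 the calls of PSY, at 0.39, PDS, at 0.35, and BCH1, at 0.71, were lost, and that of PSY was also lost, at 0.43, without cry1cry2 UVA replicate 2. Without the 3 libraries with over 1% chloroplast counts PSY stood at 0.58 and was not called (adjusted p = 0.0729), and the other 4 calls in cry1cry2 held. In uvr8-2 edgeR called 0 of the 9 (0% of all genes), with 3 (PSY, ZDS and BCH1) at an unadjusted p under 0.05 and 0 by DESeq2. BCH1 differed there by 0.44 ± 0.20 (adjusted p = 0.799) and PSBS by 0.13 ± 0.11 (adjusted p = 0.936). In Ler 3 of the 9 were called, all higher, against 3.04% of all genes in either direction and 2.23% higher. BCH1 rose by 0.72 ± 0.20 (adjusted p = 0.0481), ZDS by 0.40 ± 0.10 (adjusted p = 0.0219) and PDS by 0.34 ± 0.09 (adjusted p = 0.0478), and PSBS differed by 0.36 ± 0.11 (adjusted p = 0.0776), which DESeq2 called. The Ler calls of PDS and ZDS were lost without UVA replicate 1, UVA replicate 2 or UVA+B replicate 2, and that of BCH1 without any one of its 4 libraries. Over these fits the Ler values stayed between 0.26 and 0.42 for PDS, 0.33 and 0.47 for ZDS and 0.64 and 0.80 for BCH1. The UV-B step was not shown to differ from Ler in either mutant. For PSBS the difference was -0.23 ± 0.15 (adjusted p = 0.777) for uvr8-2 minus Ler, with a 95% interval of -0.55 to 0.09, and 0.30 ± 0.15 (adjusted p = 1.000) for cry1cry2 minus Ler, with an interval of -0.02 to 0.62. edgeR called 0 of the 9 for either difference (0.00501% and 0% of all genes), with 0 at an unadjusted p under 0.05 and 0 by DESeq2 in each. At this step 3 of the 4 leaf markers (RCA, CA1 and LHCB3) fell in cry1cry2 and 1, RCA, fell in Ler, the opposite direction to the called genes among the 9; their part in this step was not tested.

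Averaging each step over the 3 genotypes lowered its error, but an averaged call does not show that the genotypes responded alike. In single genotypes, edgeR calls among the 9 genes came from cry1cry2 alone at the short UV-A step. They came from uvr8-2 and Ler at the blue step, and from cry1cry2 and Ler at the UV-B step. On the average the blue step passed for 7 of the 9 genes, all but PSY and BCH2, against 29% of all genes (14.8% higher). ZEP rose by 0.44 ± 0.14 (adjusted p = 0.0274) and VDE by 0.36 ± 0.12 (adjusted p = 0.031). Each of these 2 calls was lost in 6 of 12 fits, ZEP without the replicate 1 library of any UV0 group or the replicate 2 library of any blue0 group, and VDE without the replicate 2 library of any UV0 group or the replicate 1 library of any blue0 group. Their values over the 12 fits were 0.35 to 0.54 for ZEP and 0.28 to 0.48 for VDE. Both genes differed between the replicate numbers. The log2 difference, replicate 2 minus replicate 1, was -0.37 ± 0.04 for ZEP and 0.29 ± 0.04 for VDE. Leaving out 1 library unbalances these numbers, here and in the other such fits of ZEP and VDE. The part of this in the lost calls was not tested. The averaged short UV-A step passed for 4 (PDS, ZDS, BCH1 and PSBS), against 4.06% of all genes (2.29% higher), and the averaged UV-B step for 5 (the same and PSY), against 14.9% (7.64% higher). Every averaged call was higher. The averaged values of BCH1 were 1.43 ± 0.12 (adjusted p = 2.38e-08) for the blue step, 0.70 ± 0.11 (adjusted p = 0.000993) for the short UV-A step and 0.73 ± 0.11 (adjusted p = 0.000126) for the UV-B step.

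Over the whole range from blue0 to UVA+B, BCH1 and PSBS rose in every genotype. BCH1 rose by 2.70 ± 0.21 (adjusted p = 1.23e-08) in uvr8-2, 3.02 ± 0.21 (adjusted p = 7.32e-10) in cry1cry2 and 3.45 ± 0.22 (adjusted p = 1.25e-10) in Ler. PSBS rose by 1.57 ± 0.11 (adjusted p = 2.42e-09) in uvr8-2, 1.91 ± 0.11 (adjusted p = 4.03e-11) in cry1cry2 and 1.97 ± 0.11 (adjusted p = 1.98e-11) in Ler. This span was called for 7 of the 9 genes in uvr8-2, against 24% of all genes (12.9% higher), for 7 in cry1cry2, against 43.1% (20.4% higher), and for 8 in Ler, against 43.5% (21.5% higher), and every such call was higher. Averaged over genotypes it was called for 8, against 59.2% of all genes (28.4% higher). BCH2 was not among them in any genotype. In the single genotypes edgeR called VDE in Ler, at 0.63 ± 0.21 (adjusted p = 0.0211), a call lost without Ler blue0 replicate 1 or Ler UVA+B replicate 2, with 0.45 to 0.84 over 4 fits. VDE in uvr8-2 had 0.54 ± 0.21 (adjusted p = 0.0676) and was called by DESeq2 and in 2 of 4 edgeR fits without 1 library, and its difference, uvr8-2 minus Ler, was -0.08 ± 0.30 (adjusted p = 0.935). The call of VDE averaged over genotypes, 0.35 ± 0.12 (adjusted p = 0.0179), was lost in 4 of 12 fits, without blue0 replicate 1 or UVA+B replicate 2 of uvr8-2 or of Ler, with 0.27 to 0.47 over the 12. This average includes cry1cry2, where VDE did not rise and had -0.12, which was not called. The VDE difference cry1cry2 minus Ler was -0.75 ± 0.30 (adjusted p = 0.769), with a 95% interval of -1.37 to -0.12. The calls of LYCB and ZEP in cry1cry2 were lost without cry1cry2 UVA+B replicate 1 or blue0 replicate 2, and that of PSY without cry1cry2 UVA+B replicate 1. The values over 4 fits were 0.27 to 0.41 for LYCB, 0.55 to 1.07 for ZEP and 0.39 to 0.70 for PSY. Taking the log2 total of PDS, ZDS, BCH1 and PSBS as 100%, the blue step held 60.4% to 74.1% of it in uvr8-2, 7.9% to 22.9% in cry1cry2 and 50.5% to 64.1% in Ler. The short UV-A step held -0.4% to 12.3% in uvr8-2, 43.8% to 51% in cry1cry2 and 11.1% to 17.4% in Ler. For PSY the UV-B step held 66.7% in uvr8-2, 100.9% in cry1cry2 and 68.2% in Ler.

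All solar UV together (UVA+B minus UV0) gave 1 call of 9 in uvr8-2, against 0.771% of all genes (0.681% higher). This was BCH1, at 1.07 ± 0.20 (adjusted p = 0.0108), and it was lost without uvr8-2 UVA+B replicate 1, UV0 replicate 1 or UV0 replicate 2, with 0.93 to 1.19 over 4 fits. DESeq2 called ZDS and PSBS as well. In cry1cry2 it gave 6 calls, against 34.1% of all genes (16.3% higher), with BCH1 at 2.38 ± 0.21 (adjusted p = 2.86e-08) and PSBS at 1.47 ± 0.11 (adjusted p = 2.96e-09). In Ler it gave 7, against 17.8% (9.47% higher), with BCH1 at 1.44 ± 0.20 (adjusted p = 3.44e-05) and PSBS at 0.71 ± 0.11 (adjusted p = 0.000106). All of these calls were higher, as were the 7 made on the average over genotypes, against 40.1% of all genes (19.2% higher). Of the calls in cry1cry2, that of PSY, 0.53 ± 0.13 (adjusted p = 0.00249), was lost without cry1cry2 UVA+B replicate 1 (0.38 to 0.68 over 4 fits) and that of ZEP, 0.75 ± 0.25 (adjusted p = 0.0257), without UVA+B replicate 1 or either UV0 library (0.49 to 0.99). Of those in Ler, ZEP, 0.79 ± 0.25 (adjusted p = 0.0344), was lost without any one of its 4 libraries (0.63 to 0.93), PSY, 0.43 ± 0.13 (adjusted p = 0.0213), without UVA+B replicate 1 or either UV0 library (0.30 to 0.55), and LYCB, 0.33 ± 0.10 (adjusted p = 0.019), without either UVA+B library or UV0 replicate 2 (0.27 to 0.39). For PSBS the difference of this span was 0.77 ± 0.15 (adjusted p = 0.0628) for cry1cry2 minus Ler, which missed the threshold in edgeR, and -0.30 ± 0.15 (adjusted p = 0.561) for uvr8-2 minus Ler. edgeR called 0 of the 9 for either difference (0.0651% of all genes for cry1cry2 and 0.666% for uvr8-2). At an unadjusted p under 0.05 there were 4 for cry1cry2 (PDS, ZDS, BCH1 and PSBS) and 1 for uvr8-2 (PDS), and DESeq2 called 3 for cry1cry2 (PDS, ZDS and PSBS) and 0 for uvr8-2. Over the span from blue0 to UVA+B edgeR again called 0 of the 9 for either difference (0.01% of all genes for cry1cry2 and 1.15% for uvr8-2). There 2 (LYCB and VDE) had an unadjusted p under 0.05 for cry1cry2 and 3 (PDS, BCH1 and PSBS) for uvr8-2, and DESeq2 called 0 for cry1cry2 and 1, PDS, for uvr8-2.

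Set directly against Ler, cry1cry2 had genes called lower in the middle of the filter series and none of the 9 called at its ends. Under blue0 edgeR called 0 of the 9 (1.51% of all genes), with 3 at an unadjusted p under 0.05 (BCH1, ZEP and VDE, all on the higher side in cry1cry2) and 0 by DESeq2. Under UV0 4 were lower in cry1cry2, against 7.28% of all genes (3.42% lower). PSBS had 1867 and 2248 CPM in cry1cry2, against 3701 and 3772 CPM in Ler, a log2 difference of -0.86 ± 0.11 (adjusted p = 6.94e-05). BCH1 differed by -0.92 ± 0.20 (adjusted p = 0.00699), ZDS by -0.58 ± 0.10 (adjusted p = 0.000655) and PDS by -0.38 ± 0.09 (adjusted p = 0.0148). Under UVA350 5 were lower, against 9.6% of all genes (4.82% lower). PSBS had 1849 and 2192 CPM in cry1cry2, against 4174 and 3961 CPM in Ler, a difference of -1.01 ± 0.11 (adjusted p = 6.73e-06). BCH1 differed there by -1.08 ± 0.20 (adjusted p = 0.00173), ZDS by -0.60 ± 0.10 (adjusted p = 0.000392), PSY by -0.44 ± 0.13 (adjusted p = 0.0316) and PDS by -0.42 ± 0.09 (adjusted p = 0.00644). Under UVA 1 was lower, PSBS at -0.39 ± 0.11 (adjusted p = 0.0495), against 3.38% of all genes (1.47% lower). Under UVA+B edgeR called 0 (0.861% of all genes), with 0 at an unadjusted p under 0.05 and 0 by DESeq2, and PSBS differed by -0.09 ± 0.11 (adjusted p = 0.781), with a 95% interval of -0.32 to 0.13. Several of these calls rested on single libraries. PDS under UV0 (-0.43 to -0.34), PSY under UVA350 (-0.54 to -0.36) and PSBS under UVA (-0.46 to -0.33) were lost without any one of their 4 libraries. BCH1 under UV0 (-1.07 to -0.76) was lost without Ler UV0 replicate 1 or cry1cry2 UV0 replicate 1, and PDS under UVA350 (-0.51 to -0.36) without cry1cry2 UVA350 replicate 1 or Ler UVA350 replicate 2. The calls of PSBS and ZDS under UV0, and of PSBS, ZDS and BCH1 under UVA350, held in all 4 fits each.

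Between uvr8-2 and Ler few of the 9 genes were called under any filter. The Ler libraries are the same as those set against cry1cry2. Under UVA+B 2 of the 9 were lower in uvr8-2, a count near the share over all genes, which was 15.2% of all genes (8.4% lower). BCH1 had 199.9 and 167 CPM in uvr8-2, against 266 and 286 CPM in Ler, a log2 difference of -0.59 ± 0.20 (adjusted p = 0.0451). PDS had 201 and 189.5 CPM in uvr8-2, against 226 and 253 CPM in Ler, a difference of -0.29 ± 0.09 (adjusted p = 0.0375). PSBS differed by -0.31 ± 0.11 (adjusted p = 0.0546). At an unadjusted p under 0.05 there were 4 (PDS, ZDS, BCH1 and PSBS), all on the lower side in uvr8-2. DESeq2 called 3 (PDS, BCH1 and PSBS). BCH1 was lost without any one of its 4 libraries (-0.73 to -0.47), and PDS without either uvr8-2 UVA+B library or Ler UVA+B replicate 2 (-0.37 to -0.21). Under each of the other 4 filters edgeR called 0 of the 9, with 0 at an unadjusted p under 0.05 and 0 by DESeq2. The shares of all genes called were 0% under blue0, 0.135% under UV0, 0.01% under UVA350 and 0.245% under UVA.

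**Figure D3:**
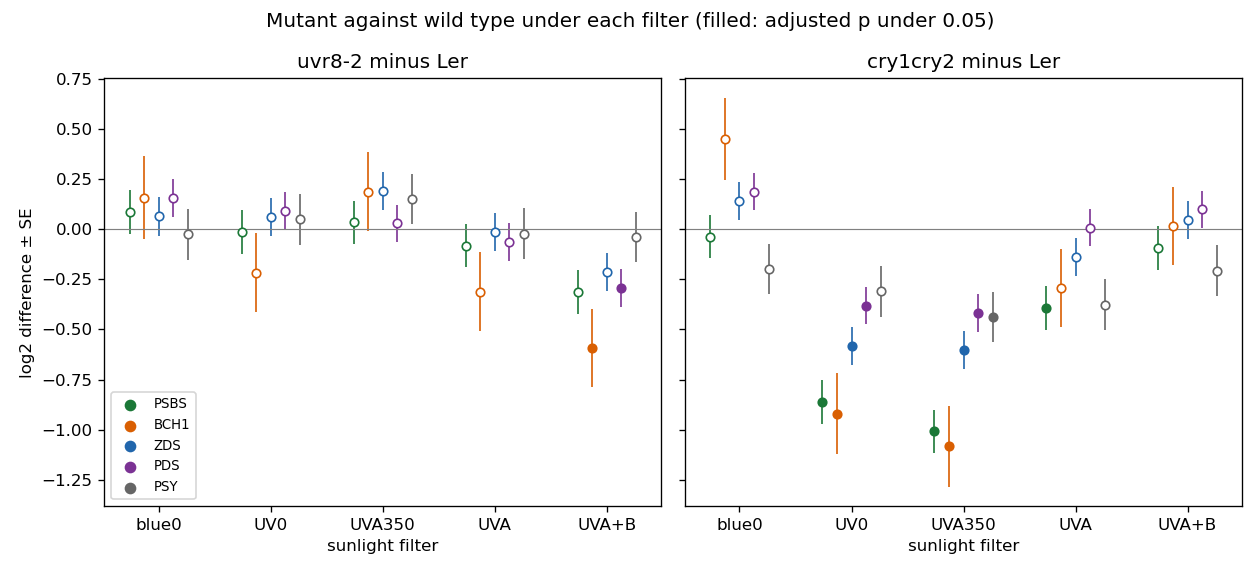
Log2 difference (vertical axis) of uvr8-2 minus Ler, left, and cry1cry2 minus Ler, right, under each filter for 5 of the genes, with bars of 1 standard error from the fit; filled symbols passed an adjusted p of 0.05. In cry1cry2, PSBS and BCH1 lie near or below -0.86 under UV0 and UVA350 and close to 0 under UVA+B.

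Other genes around the pathway were counted in 4 lists. Of 8 other genes of carotenoid synthesis, the blue step raised 4 and lowered 1 in uvr8-2, called 0 in cry1cry2, and raised 3 and lowered 1 in Ler. Over all genes the blue step was called in either direction for 15.2% in uvr8-2, 0.175% in cry1cry2 and 18.1% in Ler. The cytochrome P450 carotene hydroxylases CYP97A3 and CYP97C1 were among them. The blue step of CYP97A3 was 0.91 ± 0.14 in uvr8-2, 0.22 ± 0.14 in cry1cry2, which was not called, and 0.89 ± 0.14 in Ler. CYP97C1 rose by 0.55 ± 0.13 in uvr8-2 and 0.80 ± 0.13 in Ler, and PTOX, the plastid terminal oxidase, by 0.45 ± 0.10 and 0.30 ± 0.10 in the same genotypes. The gene that fell was ABA4, which acts in neoxanthin formation, by 0.55 ± 0.15 in uvr8-2 and by 0.69 ± 0.15 in Ler. Of the 8 genes 2, CYP97A3 and CYP97C1, rose in cry1cry2 at the short UV-A step, by 0.51 ± 0.14 and 0.51 ± 0.13, and 0 were called in the other genotypes, against 3.54% of all genes in cry1cry2, 0% in uvr8-2 and 0.2% in Ler. At the UV-B step 0 were called in uvr8-2, 3 rose in cry1cry2 and 1, PTOX, rose in Ler, against 0%, 14% and 3.04% of all genes in that order of genotypes. LYCE, the epsilon-cyclase of the lutein branch, was called at no single step. The median change of the 8 at the blue step was 0.27 in uvr8-2, -0.01 in cry1cry2 and 0.15 in Ler, beside medians over all genes of -0.01, 0.00 and -0.01 in that order of genotypes.

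Of 7 genes that act in or around energy quenching, 4 rose at the blue step in uvr8-2, 0 in cry1cry2 and 4 in Ler. Of all genes 8.38% were called higher at that step in uvr8-2, 9.7% in Ler, and 0.175% were called in either direction in cry1cry2. These 4 were KEA3, a thylakoid potassium-proton antiporter, PGR5 and PGRL1A, which act in cyclic electron flow, and SOQ1, which limits a slow form of quenching. KEA3 rose by 0.81 ± 0.11 in uvr8-2 and 0.63 ± 0.11 in Ler, and SOQ1 by 0.78 ± 0.11 in uvr8-2 and 0.68 ± 0.11 in Ler. PGR5 rose by 0.73 ± 0.13 in uvr8-2 and 0.73 ± 0.13 in Ler, and PGRL1A by 0.45 ± 0.13 in uvr8-2 and 0.55 ± 0.13 in Ler. The short UV-A step raised 1 in cry1cry2, KEA3 by 0.45 ± 0.11, against 3.54% of all genes called in either direction and 2.19% higher. At the UV-B step in cry1cry2 PGR5 rose by 0.41 ± 0.13 while PGRL1A fell by 0.43 ± 0.13, 2 of 7 called against 14% of all genes. The median of the 7 at the blue step was 0.45 in uvr8-2, 0.07 in cry1cry2 and 0.55 in Ler.

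Of 7 carotenoid cleavage genes 6 passed the filter on low counts, and 1, CCD1, a cleavage dioxygenase, rose at the blue step, by 0.64 ± 0.10 in uvr8-2 and 0.61 ± 0.10 in Ler. A count of 1 in 6 is near the share of all genes called at that step, 15.2% in uvr8-2 and 18.1% in Ler. CCD1 also rose at the short UV-A step in cry1cry2, by 0.46 ± 0.10. CCD4, which cleaves carotenoids in plastids, fell at the UV-B step in cry1cry2 by 2.01 ± 0.40 (adjusted p = 0.00288), with a mean of 64.0 ± 0.610 CPM under UVA+B and 257 ± 14.0 CPM under UVA (SD, n = 2). In Ler the CCD4 value was -0.74 ± 0.39 and was not called. NCED3, which acts in abscisic acid synthesis, and CCD7, which acts in strigolactone synthesis, were called at no single step. Group means of CCD7 were only 0.163 to 0.614 CPM, too low for the lack of calls to show an unchanged level.

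Of 5 genes of precursor supply, 1 rose at the blue step in Ler and 0 in the mutants, and at the UV-B step 2 fell in cry1cry2, 1 in Ler and 0 in uvr8-2. The 1 of 5 at the blue step in Ler is near the 18.1% of all genes called there, and at the UV-B step the shares of all genes were 14% in cry1cry2, 3.04% in Ler and 0% in uvr8-2. GGPPS11, the synthase of geranylgeranyl diphosphate, fell at the UV-B step by 0.75 ± 0.11 in cry1cry2 (adjusted p = 0.000111) and by 0.63 ± 0.11 in Ler (adjusted p = 0.00206), with -0.14 ± 0.11 in uvr8-2, which was not called. HDS, an enzyme of the methylerythritol phosphate pathway, fell there by 0.39 ± 0.10 in cry1cry2. At the UV-B step GGPPS11 thus fell where PSY, PDS, ZDS, BCH1 and PSBS rose in cry1cry2. DXR and DXS1, earlier enzymes of the same pathway, were called at no single step.

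**Figure D4:**
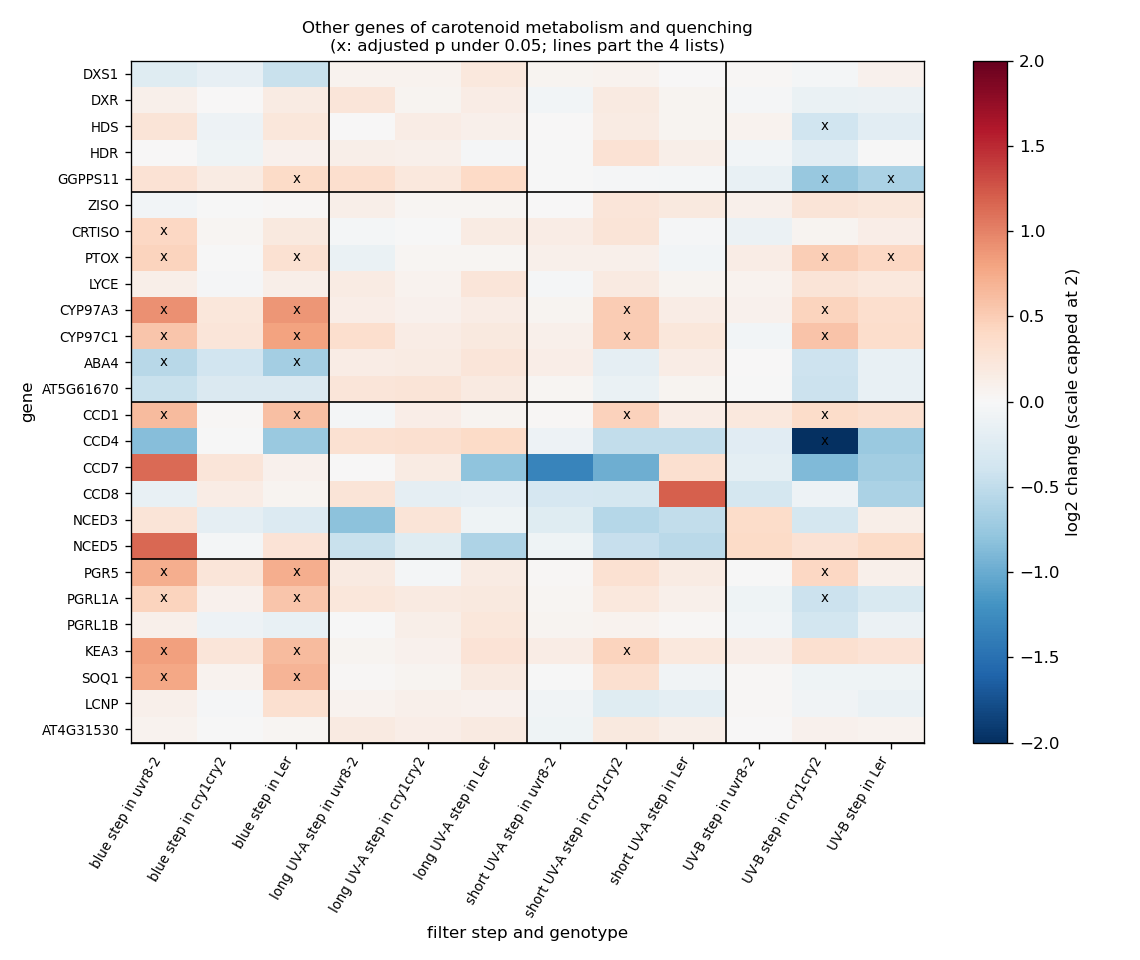
Log2 change (colour, capped at 2 in either direction) of the 26 listed genes that passed the filter at each filter step (columns, 3 genotypes each); an x marks an adjusted p under 0.05. Horizontal lines part, from the top, precursor supply, other carotenoid synthesis, carotenoid cleavage and quenching regulators. Most marked cells are in the blue step of uvr8-2 and Ler and in the UV-B step of cry1cry2.

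As a description over the 15 group means, which share libraries and conditions, 4 of the genes followed each other closely. Pearson's r of log2 CPM was 0.99 between ZDS and PSBS, 0.989 between ZDS and BCH1, 0.986 between PDS and BCH1 and 0.977 between BCH1 and PSBS. With these 4 genes ZEP had an r of 0.826 to 0.912 and LYCB 0.83 to 0.87. The value was 0.381 between BCH1 and BCH2 and -0.058 between BCH2 and VDE. For BCH2 the median SD within a group, 0.631 in log2 CPM, exceeded the SD of its 15 group means, 0.309. That SD within groups includes its replicate difference. The part of this spread in the low r of BCH2 was not tested. Over all genes past the filter, those with the highest r to PSBS were AT4G29590 (0.997), CYP97A3 (0.996) and VTE1 (0.995). For BCH1 they were OHP2 (0.996), VAR1 (0.994) and APG2 (0.994). For ZDS they were VAR1 (0.996), AT5G06220 (0.995) and VTE1 (0.995), and for PDS they were PREP1 (0.994), AT5G02860 (0.991) and AT2G23390 (0.991).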

How the data were processed

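Whole-rosette RNA was sequenced from a stranded mRNA kit, per the labels' protocols, in 30 libraries of 15 groups. The file that the authors deposited holds 1 estimated count per gene and library. FastQC, Trimmomatic 0.33 and kallisto are named in the submitters' processing notes. No source used here states the genome build, the annotation or the strand setting. Of the loci, 97.7% were in the RefSeq TAIR10.1 gene table, which served for names, transcript lengths and upstream sequence.

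Estimated counts were rounded and tested with edgeR 4.0.16 in R 4.3.3, with TMM factors (0.927 to 1.11), filterByExpr, and 1 robust quasi-likelihood fit with a coefficient per group and 15 residual degrees of freedom. All 46 comparisons (12 single steps, 6 averages, 6 spans, 10 mutant against Ler, 12 differences) were adjusted over 19980 genes each and called under 0.05, whatever the fold. The code was tested on simulated counts. Levels are TMM-scaled CPM. The labels do not say that a replicate number marks shared field blocks, so the p-values reflect only how pooled libraries from 1 day outdoors varied. In fits without 1 library, the lone library of a group was assumed to vary like the others. Alternatives were RLE factors, no filter on low counts, a replicate block, DESeq2 1.42.0, leaving out libraries and a log2 threshold of 0.5. The 9 genes, gene lists and tests were chosen with earlier results of these data known. Named list genes are up to 4 per list with the smallest adjusted p (ABA4 was named after its values were seen), and the 3 genes most like each of the 4 members with the widest spread, by Pearson's r of log2 CPM (prior count 2).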

Additional observations from a re-analysis of the deposited data

Results flagged for a closer look

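The difference of the blue step (UV0 minus blue0) between cry1cry2 and Ler passed its own test for 3 of the 9 genes, which is what put them here. The log2 difference, cry1cry2 minus Ler, was -0.82 for PSBS, -1.37 for BCH1 and -0.72 for ZDS. In each of the 3 genes the fitted blue step was positive in both genotypes and smaller in cry1cry2, where edgeR did not call it. The calls of the 3 differences depended on single libraries.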

How the results depend on the processing

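Of 414 values (9 genes in 46 comparisons), 106 were called, and 73 of these held in every fit that left out 1 of the libraries compared. None of the 106 changed sign under any alternative tried. Among values that were not called, 35 sign changes occurred over the alternatives other than the fits without 1 library. The log2 threshold of 0.5 alters no value and could give no sign change. RLE factors kept 105 of the 106 and added 2, DESeq2 kept 106 and added 13, leaving out the 3 libraries with over 1% chloroplast counts kept 99 and added 1, and a log2 threshold of 0.5 kept 78. Without the filter on low counts 90 were kept, and the 16 lost calls included all those of the UV-B step in Ler, those of uvr8-2 against Ler under UVA+B, PSBS under UVA in cry1cry2 against Ler, and LYCB and ZEP at the blue step. Calls in steps averaged over genotypes fell to 17 of 32, and those of mutant against Ler to 7 of 12, with the log2 threshold of 0.5. Differences of steps and spans between a mutant and Ler gave 3 calls, 9 with DESeq2 and 0 to 4 without 1 library. Without 1 library the other counts were 19 to 23 for single steps (23 with all libraries), 30 to 32 for averaged steps (32), 31 to 37 for spans (36) and 8 to 11 for mutant against Ler (12). Libraries of different groups with the same replicate number deviated together in 104 of 105 pairs of groups (r over 0.1, lowest 0.078, median 0.402), and 30 of 30 libraries correlated best with their own number, a hint from the data and not the design. With the replicate block all 106 calls were kept and 26 added, among them VDE at the blue step in Ler, and differences between a mutant and Ler gave 8 calls. The number was itself called for 24% of all genes, and for BCH2 the log2 difference, replicate 2 minus replicate 1, was -0.87 ± 0.08. With 2 libraries a group, fits without 1 library have fewer samples. For genes that differ between replicate numbers, such as ZEP and VDE, they also have unbalanced numbers. The part of either in the lost calls was not tested.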
